A study of Mus musculus with 4 samples.

Results

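The major urinary protein (Mup) genes were described in liver RNA of 4 male mice fed a Western diet plus sugar water. The genes were Mup1, Mup2, Mup3, Mup7, Mup10, Mup11, Mup17, Mup20, Mup21 and Mup22, taken by name, and 9 of the 10 had a row among the 46603 genes of the count table. No row matched the identifier of Mup22. The table also held 12 other numbered Mup genes and 27 Mup pseudogenes, so that 48 rows belonged to the family. All 4 animals were C57BL/6J mice homozygous for floxed alleles of HuR, an RNA-binding protein encoded by Elavl1. Mice 1 and 2 were the controls and had been injected with AAV8-TBGP-GFP, a viral vector that expresses a fluorescent protein. Mice 3 and 4 were labelled HuR hKO and had received AAV8-TBGP-Cre recombinase through the tail vein. The thyroxine-binding globulin promoter of both vectors is active in hepatocytes, so the other cells of the liver were left with their HuR alleles. The diet took 42% of its calories from fat and held 0.1% cholesterol, the drinking solution held 23.1 g/L fructose and 18.9 g/L glucose, and both were given for 4 weeks. The labels describe the ages of the groups as matched.

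Major urinary proteins are small secreted lipocalins, barrel-shaped proteins that carry hydrophobic molecules. Hepatocytes make them in large amounts, above all in males, and the kidney passes them into the urine, where they bind pheromones and act as scent signals themselves. Their genes form a cluster of tandem copies, with a central block of nearly identical genes and more diverged genes at its edges. Transcription in the liver depends on pulses of growth hormone acting through Stat5b and on thyroid hormone and glucocorticoid signals. Liver nuclear factors and the regulator Zhx2 also act on it. Mup20 encodes darcin, a male pheromone that attracts females, and circulating Mup1 has been linked to glucose and lipid metabolism.

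All 10 genes lie on the minus strand of chromosome 4 (GRCm38, GENCODE M21 coordinates). From low to high coordinates, Mup7 lies at chr4:60066469-60070475, Mup2 at chr4:60135932-60154289, Mup1 at chr4:60498012-60501960, Mup10 at chr4:60578260-60582199 and Mup11 at chr4:60658466-60662411. Mup22 follows at chr4:60817589-60821463 and Mup17 at chr4:61591929-61595871. Mup20 at chr4:62050234-62054158, Mup3 at chr4:62083476-62087342 and Mup21 at chr4:62147932-62150863 are the last numbered genes of the cluster. Of the 9 genes with a row, 0 overlapped another gene of the table on either strand.

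The coding sequences show how far reads could tell the copies apart. Among the 7 genes of the list from Mup7 to Mup17, the 21 pairs were between 98.4% and 99.6% identical, with 2 to 9 differing positions. These 7 genes matched Mup20, Mup3 and Mup21 at 83.5% to 91.4%, and the last 3 matched each other at 87.6% to 95.4%. A stretch of 60 coding bases in exon 3, shown because it separates the end genes from the block, is given from 5′ to 3′ with the bases that differ from Mup7 in capitals.
Mup7 (chr4:60068915-60068974): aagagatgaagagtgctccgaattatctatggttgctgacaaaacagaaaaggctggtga
Mup1 (chr4:60500453-60500512): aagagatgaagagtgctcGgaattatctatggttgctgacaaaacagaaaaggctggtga
Mup20 (chr4:62052650-62052709): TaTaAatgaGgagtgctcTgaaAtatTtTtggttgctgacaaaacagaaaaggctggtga
Mup3 (chr4:62085973-62086032): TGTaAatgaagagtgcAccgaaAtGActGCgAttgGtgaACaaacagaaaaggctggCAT
Mup21 (chr4:62149368-62149427): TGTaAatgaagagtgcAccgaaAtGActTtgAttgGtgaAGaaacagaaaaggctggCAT
Mup10, Mup17 and Mup22 had the stretch of Mup7 without a difference, and Mup2 and Mup11 had that of Mup1. Mup20 differed from Mup7 at 8 of the 60 bases, Mup21 at 16 and Mup3 at 17. As the stretch was picked for its differences, it overstates the distance. Over the whole coding sequence, Mup3 differed from Mup7 at 90 of 546 positions.

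The share of a transcript found in no other gene was computed from all windows of 100 bases along it. It was 2.7% for Mup2, 12.8% for Mup1, 12.9% for Mup7, 14.6% for Mup10, 16.5% for Mup11 and 40.6% for Mup17. By contrast it was 61.2% for Mup20, 95.5% for Mup21 and 96.8% for Mup3. For Mup22 it was 0.0%, so no window of that length could be assigned to it alone. At this length, which was chosen here and not taken from the reads, most of the sequence of Mup20, Mup3 and Mup21 was their own. The counts of Mup1, Mup2, Mup7, Mup10 and Mup11 depend more on how reads that match several copies were divided. RSEM, a program that estimates such a division, is named in the submitters' processing notes, and how it treated these reads is not given in the sources used here. The split of counts between single genes of the block is uncertain for this reason, and sums over the block are less affected.

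RefSeq promoters (build GRCm38.p6) were found for 7 of the 10 genes, with none for Mup1, Mup20 and Mup22. Those of the 5 block genes were 94.3% to 98.9% identical in pairs, and they matched those of Mup3 and Mup21 at 73.7% to 84.1%. Unaligned ends were left out, so pairs with Mup7 covered only 165 to 226 of the 300 bases. The 84.1% was that of Mup7 and Mup3, over 220 bases. Mup3 and Mup21 matched each other at 92.9%. Promoters of 2 genes that were lower and of 2 end genes are given from 150 bases before to 20 bases after the annotated start, on the coding strand, with the match to TATATAA in capitals.
Mup11 (chr4:60662376-60662545): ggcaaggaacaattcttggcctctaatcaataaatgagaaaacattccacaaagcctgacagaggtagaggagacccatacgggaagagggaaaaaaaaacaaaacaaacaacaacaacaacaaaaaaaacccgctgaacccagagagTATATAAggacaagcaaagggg
Mup17 (chr4:61595813-61595982): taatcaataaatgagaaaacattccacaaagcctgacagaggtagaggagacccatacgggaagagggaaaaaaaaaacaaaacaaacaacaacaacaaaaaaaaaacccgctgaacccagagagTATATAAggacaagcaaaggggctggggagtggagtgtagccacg
Mup3 (chr4:62087298-62087467): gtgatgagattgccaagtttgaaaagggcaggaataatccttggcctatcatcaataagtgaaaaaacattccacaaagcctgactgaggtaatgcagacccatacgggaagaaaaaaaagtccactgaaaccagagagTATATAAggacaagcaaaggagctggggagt
Mup21 (chr4:62150822-62150991): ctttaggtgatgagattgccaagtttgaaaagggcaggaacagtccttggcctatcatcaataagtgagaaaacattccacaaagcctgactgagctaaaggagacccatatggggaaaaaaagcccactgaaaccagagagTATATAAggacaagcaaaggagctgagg
The stretch before TATATAA in Mup11 and Mup17 holds a run of a and c bases that is shorter in Mup3 and Mup21. TATATAA, a motif chosen after the promoters were read, was present in 6 of the 7 promoters, against 3.2% of 32851 RefSeq promoters of the same 300 bases. These promoters are similar copies, so the 6 do not count as separate observations. The 300 bases of Mup7 held no match. They end with bases that in Mup11 and Mup17 lie just before the run of a and c bases. The Mup7 window thus stops before the position of TATATAA in those genes. Matches to the STAT motif TTCNNNGAA (8.3% of promoters) and to the C/EBP motif TTGCNNAA (10.8%), searched on both strands, were not present in these windows.

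Total counts on genes were 13032095 and 13615761 in the control libraries, 13806773 in that of mouse 3 and 19715577 in that of mouse 4. Levels are given as CPM, counts scaled to a common library size with TMM factors from 0.9566 to 1.04. Elavl1, the targeted gene, stood at 28.4 and 25.9 CPM in the controls and at 37.7 and 34.4 CPM in mice 3 and 4. The log2 fold change was 0.41 ± 0.135 (SE, edgeR unadjusted p = 0.016, adjusted p = 0.545), and from 0.33 to 0.72 over the alternatives run. The level of Elavl1 in mice 3 and 4 thus exceeded that of both controls, and every direction below is that of the labels. From counts per gene, a library that goes against its label and reads counted on parts of Elavl1 outside the floxed segment cannot be told apart. All 10 hepatocyte markers were detected, with a summed level of 81308 to 84161.5 CPM in the controls and of 75301 to 86176 CPM in mice 3 and 4. Mouse 3 had the lowest of these sums. Summed markers of Kupffer cells and macrophages (7 of 7 detected) were 164.1 and 169.0 CPM in the controls and 190.2 and 176.8 CPM in mice 3 and 4. Those of endothelial cells (5 of 5 detected) were 158.6 and 143.3 against 184.0 and 168.6 CPM. Those of stellate cells (5 of 5) were 152.8 and 157.5 against 164.8 and 205.1 CPM, so all 3 sums were higher in mice 3 and 4. Within the macrophage list, Marco (log2 fold change -0.92), Adgre1 (-0.20) and Csf1r (-0.01) had negative values. The other markers in these 3 sums had positive ones. Cholangiocyte markers (4 of 4) summed to 21.0 CPM in control mouse 1 and to 5.23, 4.81 and 7.91 CPM in the other mice. Of the marker genes tested, 0 were called by the rules used here. Over all genes, at least 1.8-fold with an unadjusted p under 0.05 called 0.915% lower and 1.21% higher. Only 3 of 4 cholangiocyte, 3 of 5 lymphocyte, 1 of 4 pancreas and 0 of 4 neutrophil markers had enough counts to be tested. Ly6g, a neutrophil marker, was at 0 in every library. The part of these differences in the Mup values was not tested. In every library, 4 Y-linked genes had counts and Xist had at most 8, as the label male states; these 5 genes were chosen after the data were seen.

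Taken as a sum, the 9 Mup genes stood at 0.923 times their control level in the libraries labelled HuR hKO. They took 1.94% and 1.9% of all counts in control mice 1 and 2, 1.68% in mouse 3 and 1.83% in mouse 4. The widest of the exact binomial 95% intervals (Clopper-Pearson, counting error only), that of control mouse 1, ran from 1.933% to 1.948%. On the scaled libraries the sums were 19033 and 19280 CPM in the controls, 16198 CPM in mouse 3 and 19183 CPM in mouse 4. The value of mouse 4 lay between those of the controls, so the groups overlapped on this scale. As shares of all counts, mice 3 and 4 both lay below both controls. The group means were 19156 ± 174 CPM and 17691 ± 2111 CPM (SD, n = 2), a log2 ratio of -0.11. With all 48 rows of the family the log2 ratio was -0.25 and the groups did not overlap. Mouse 3 then stood at 73.3% and mouse 4 at 94.6% of the control mean. In RNA of whole liver, fewer cells of a type and less RNA per cell cannot be told apart.

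Behind the sums of the 9 genes, the make-up differed, above all in mouse 3. Mup3 and Mup20 together made up 66.5% and 60.6% of the counts of the 9 genes in the controls, 85.1% in mouse 3 and 70.1% in mouse 4. Mup20 alone took 22.2% and 14.0% in the controls, 36.9% in mouse 3 and 22.2% in mouse 4, so mouse 4 was level with control mouse 1. Mup7 went from 15.3% and 19.0% in the controls to 5.5% in mouse 3 and 14.8% in mouse 4. Mup17 took 3.13% and 3.65% in the controls against 0.592% in mouse 3 and 1.99% in mouse 4. Within a library, where scaling plays no part, Mup20 had 1.46 and 0.735 counts for each count of Mup7 in the controls, 6.71 in mouse 3 and 1.5 in mouse 4.

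**Figure D1:**
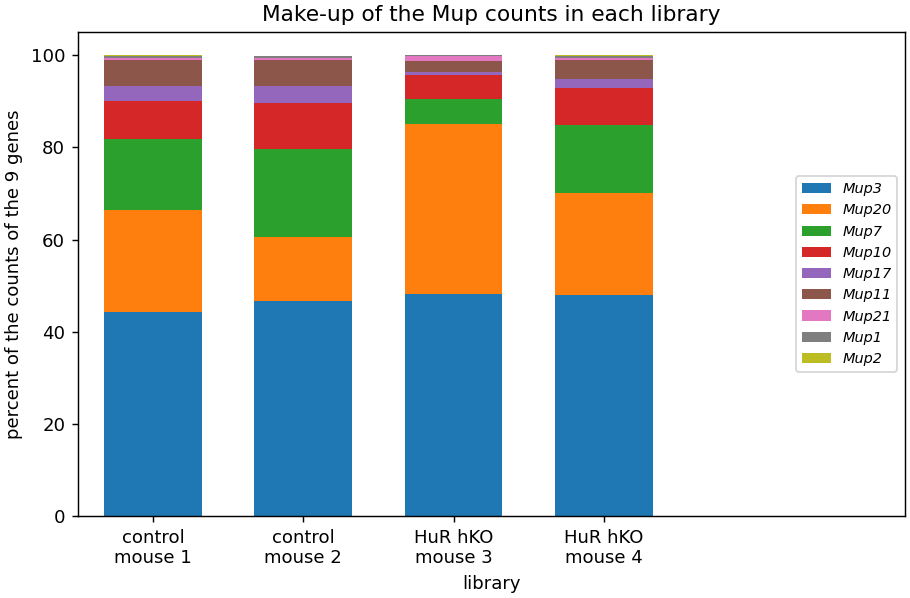
Stacked bars give the percent of the counts of the 9 Mup genes that each gene took in each of the 4 libraries. Mup3 held 44.3% to 48.2% everywhere, while Mup20 reached 36.9% in mouse 3 and Mup7 dropped to 5.5% there.

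Levels were compared between genes per kilobase of merged exons. The control order was Mup3, Mup20, Mup7, Mup10, Mup17, Mup11, Mup21, Mup1 and Mup2. Mup3 had 7895.7 and 8415 CPM per kilobase in the controls and ranked between 7 and 9 among all genes of a library by CPM. Mup20 (4561 and 2907 CPM per kilobase) and Mup7 (2814 and 3552) overlapped between control mice, as did Mup17 (643.1 and 758.9) and Mup11 (686.9 and 698.8). The other neighbours in the order did not overlap, down to Mup2 with 7.89 and 5.48 CPM per kilobase. In mice 3 and 4, Mup20 stood clear of Mup7, with 6438 and 4591 against 862.1 and 2756 CPM per kilobase. Mup11 and Mup17 exchanged places there and still overlapped, with 251.0 and 497.4 against 103.5 and 412.5 CPM per kilobase. With the length of the longest transcript in place of merged exons, Mup11 was ahead of Mup17 in the controls too. The control means of Mup21 and Mup1 were then close, at 107.3 and 104.6 CPM per kilobase.

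**Figure D2:**
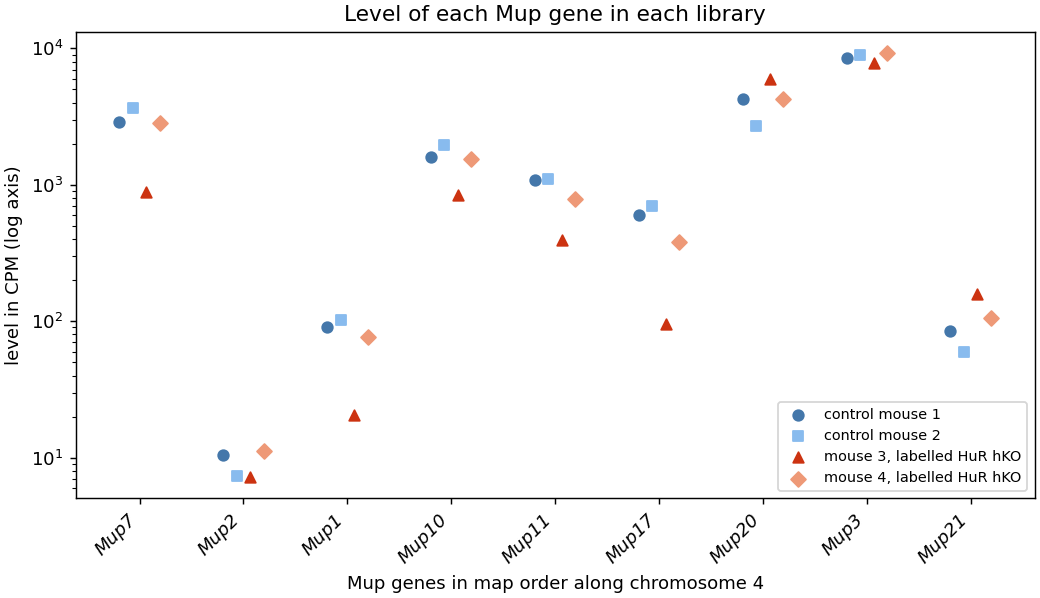
Points give the level of each of the 9 Mup genes in each library in CPM on a log axis, in map order, with circles and squares for control mice 1 and 2 and triangles and diamonds for mice 3 and 4. Mouse 3 lies lowest for every gene from Mup7 to Mup17 and highest for Mup20 and Mup21.

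In the test across all genes, 0 of the 9 Mup genes had an adjusted p under 0.05 (edgeR quasi-likelihood test, Benjamini-Hochberg over 13001 genes), where 3 of all genes did (0.0231%). At an unadjusted p under 0.05, 1 of the 9 was higher and 2 were lower, where 4.04% of all genes were higher and 3.39% lower. Adjusted calls by other tools numbered 1 with the DESeq2 Wald test (Mup21), 0 with edgeR's exact test, 0 with limma-voom and 0 with the robust quasi-likelihood test. By the rule used in the study for its genes, at least 1.8-fold with an unadjusted p under 0.05, Mup11 and Mup17 were lower and Mup21 was higher in the libraries labelled HuR hKO. That rule called 0.915% of all genes lower and 1.21% higher. Without mouse 3, 0 of the Mup genes met it in either direction. The median log2 fold change of the 9 genes was -0.58, with a range from -1.44 to 0.86, beside 0.00 over all genes tested. In 5 of the 9, both libraries labelled HuR hKO lay below both controls, and in 2 both lay above, where 18.8% and 19.3% of all genes did so. As near-identical copies share reads, the genes of the block do not count as separate observations. The smallest p of an exact two-sided permutation of 2 against 2 mice is 0.333, and the p-values given here draw instead on a spread estimated over many genes.

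Mup17 had the lowest fitted fold change of the list. Its levels were 596.2 and 703.5 CPM in the controls, 95.9 CPM in mouse 3 and 382.4 CPM in mouse 4, with 1375 counts behind the lowest value. The groups did not overlap, and mouse 3 stood at 14.8% and mouse 4 at 58.8% of the control mean. The means were 649.9 ± 75.9 and 239.2 ± 202.6 CPM (SD, n = 2), with a log2 fold change of -1.44 ± 0.506 (SE, unadjusted p = 0.0211, edgeR adjusted p = 0.574). Without mouse 3 the log2 fold change was -0.78 and the gene no longer met the 1.8-fold rule.

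Mup11 was at 1082.6 and 1101 CPM in the controls, 395.6 CPM in mouse 3 and 784.0 CPM in mouse 4. The controls differed little, and mice 3 and 4 were at 36.2% and 71.8% of their mean. The log2 fold change was -0.89 ± 0.283 (SE, unadjusted p = 0.0135, edgeR adjusted p = 0.526), and -0.50 without mouse 3, where the rule was no longer met.

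Mup1, Mup7 and Mup10 had the same order of libraries and did not meet the rule in the edgeR quasi-likelihood test. With limma-voom, Mup1 and Mup7 met it, and Mup1 also did with edgeR's exact test and with no filter on low counts. Mup1 stood at 91.1 and 102.9 CPM in the controls, 20.5 CPM in mouse 3 and 77.3 CPM in mouse 4 (log2 fold change -0.98 ± 0.471, unadjusted p = 0.0706, edgeR adjusted p = 0.684). Mup7, the most abundant gene of the block on the list, had 2907 and 3669.6 CPM in the controls, 890.6 CPM in mouse 3 and 2847 CPM in mouse 4 (log2 fold change -0.82 ± 0.446, unadjusted p = 0.104, edgeR adjusted p = 0.721). Mup10 had 1596 and 1950.2 CPM in the controls, 846.4 CPM in mouse 3 and 1533 CPM in mouse 4 (log2 fold change -0.58 ± 0.270, unadjusted p = 0.0649, edgeR adjusted p = 0.677). For these 3 genes mouse 4 was at 79.7% to 86.6% of the control mean and mouse 3 at 21.2% to 47.7%. Without mouse 4, each of the 3 met the 1.8-fold rule, with log2 fold changes of -2.24 for Mup1, -1.88 for Mup7 and -1.07 for Mup10.

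Mup2 lies in the block and did not share this pattern. It was low, with 140 and 98 counts in the controls, 103 in mouse 3 and 209 in mouse 4, or 10.5, 7.32, 7.19 and 11.1 CPM. The groups overlapped, and the log2 fold change was 0.04 ± 0.267 (edgeR adjusted p = 0.982). Leaving out control mouse 2 or mouse 4 turned its sign, to -0.19 and -0.31. Of the genes of the list with a row, it had the smallest share of windows of its own.

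Mup21, the last gene of the cluster, was the gene of the list called higher. Its levels were 85.3 and 59.95 CPM in the controls, 158.9 CPM in mouse 3 and 105.0 CPM in mouse 4. The groups did not overlap, and the means were 72.6 ± 17.9 and 131.9 ± 38.2 CPM (SD, n = 2). The log2 fold change was 0.86 ± 0.231 (SE, unadjusted p = 0.00559, edgeR adjusted p = 0.414). Leaving out control mouse 2 gave 0.63 and leaving out mouse 3 gave 0.51, and in both cases the rule was no longer met.

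Mup20, the darcin gene, had 4233 and 2698 CPM in the controls, 5974 CPM in mouse 3 and 4260.5 CPM in mouse 4. Mouse 4 lay just above control mouse 1, and the controls were 122.1% and 77.9% of their mean. The log2 fold change was 0.56 ± 0.264 (SE, unadjusted p = 0.0648, edgeR adjusted p = 0.677), and among the alternatives run the rule was met only without control mouse 1, at 0.91.

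Mup3 was the most abundant gene of the list per kilobase in all libraries. It had 8433 and 8987 CPM in the controls, 7809 CPM in mouse 3 and 9183 CPM in mouse 4, so that its controls lay between mice 3 and 4. The log2 fold change was -0.04 ± 0.195 (SE, edgeR adjusted p = 0.980), and its sign turned without control mouse 2 (0.01), without mouse 3 (0.06) and without scaling for library size (0.29), where the median of all genes also moved to 0.31.

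The other numbered Mup genes that could be tested all lie in the block and share reads with its listed genes, so they are not a separate set. Of the 12, Mup4, Mup5 and Mup6 had almost no counts and were not tested, and the 9 tested (Mup8, Mup9, Mup12 to Mup16, Mup18 and Mup19) all had negative log2 fold changes, from -1.80 to -0.48 with a median of -0.98. The 1.8-fold rule was met by 5 of the 9, all lower, where it called 0.915% of all genes lower. The median of the 9 was -0.45 without mouse 3 and -1.87 without mouse 4. Mup9 had the largest difference, with 83.5 and 117.5 CPM in the controls, 8.65 CPM in mouse 3 and 48.5 CPM in mouse 4 (edgeR adjusted p = 0.546). Mup15 had 589.0 and 666.1 CPM in the controls, 76.5 CPM in mouse 3 and 346.8 CPM in mouse 4, with a log2 fold change of -1.57. Mup19, whose transcript had no window of its own, had 1878 and 2105.5 CPM in the controls, 602.4 CPM in mouse 3 and 1475.5 CPM in mouse 4 (-0.94). Mup14 (-0.98) and Mup13 (-1.09) were the other genes that met the rule. For Mup8 (-0.89), Mup12 (-0.74), Mup16 (-0.98) and Mup18 (-0.48) it was not met. Among the pseudogenes, Mup-ps12 and Mup-ps16 passed the filter on low counts and neither was called.

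**Figure D3:**
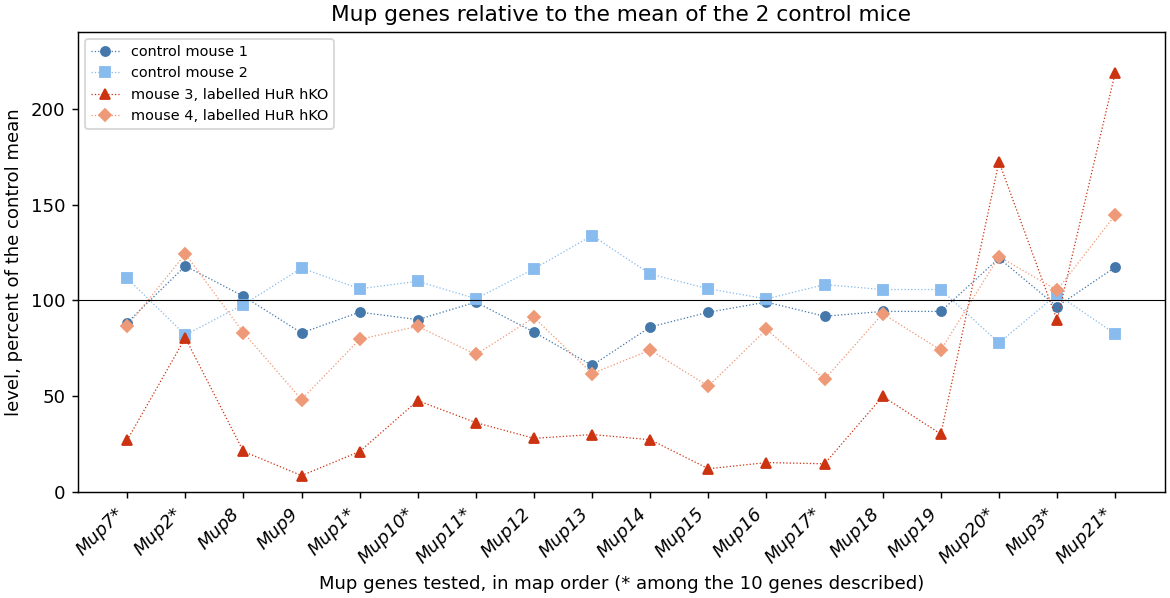
For the 18 Mup genes tested, in map order, each symbol gives a library's level as a percent of the mean of the 2 control mice (the line at 100). Mouse 3 stays at or below 49.97% from Mup7 to Mup19 except at Mup2 (80.5%), and lies above 100% at Mup20 and Mup21.

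Summing removes most of the dependence on how reads were divided between copies. The 15 numbered genes from Mup7 to Mup19, a grouping by map position made after the values were seen, summed to 10427 and 12506 CPM in the controls, 3447 CPM in mouse 3 and 8895 CPM in mouse 4. Mice 3 and 4 were at 30.1% and 77.6% of the control mean, and the log2 ratio of the group means was -0.89. Leaving out mouse 3 moved it to -0.38 and leaving out mouse 4 moved it to -1.73. Mup20, Mup3 and Mup21 together summed to 12751 and 11745 CPM in the controls, 13942 CPM in mouse 3 and 13548 CPM in mouse 4, a log2 ratio of 0.17. As shares of all counts, these 3 genes took 1.3% and 1.16% in the controls, 1.45% in mouse 3 and 1.29% in mouse 4. On that scale the groups overlapped. For each count in the block there were 1.22 and 0.939 counts on these 3 genes in the controls, 4.04 in mouse 3 and 1.52 in mouse 4. Both mice labelled HuR hKO had a higher ratio than both controls, mouse 4 by less than mouse 3. Since the grouping used these values, no test was made of it.

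**Figure D4:**
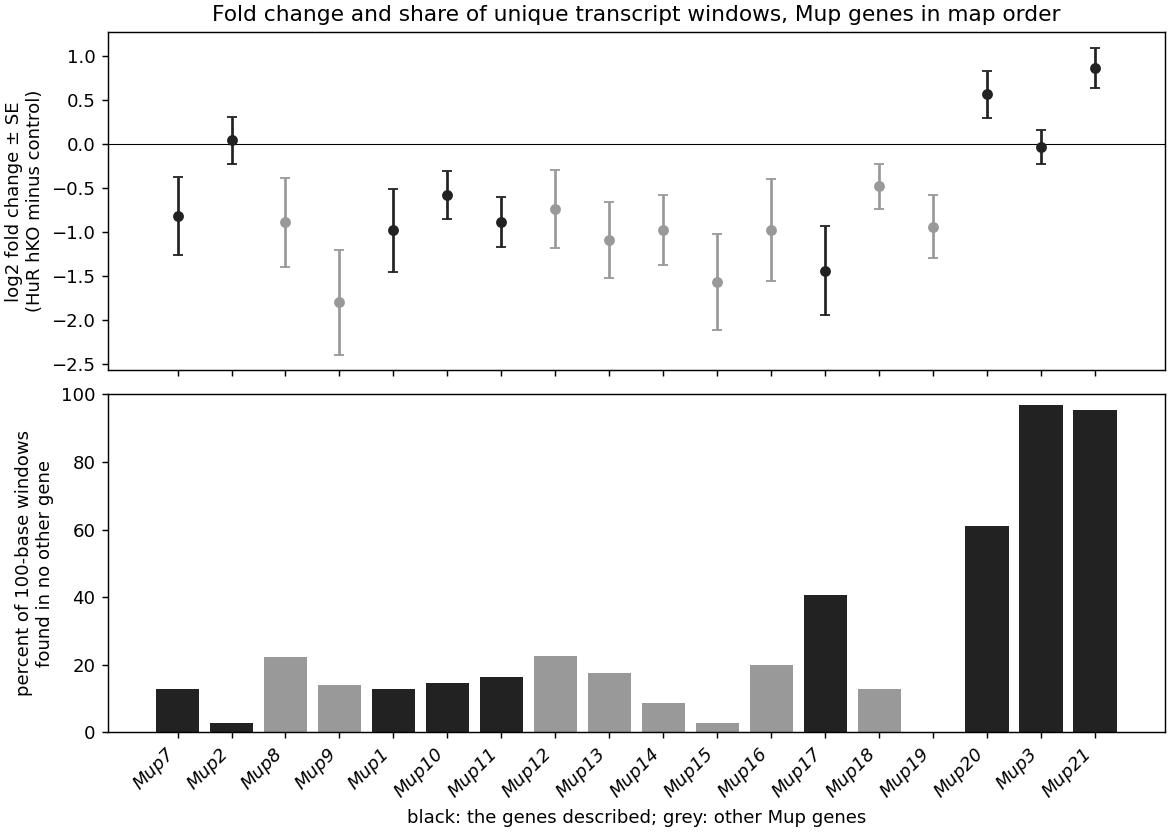
The upper panel gives the log2 fold change with its SE from the edgeR quasi-likelihood test for 18 Mup genes in map order, and the lower panel the percent of 100-base transcript windows found in no other gene. The 3 genes at the right end, with 61.2% to 96.8% of windows of their own, have log2 fold changes from -0.04 to 0.86.

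Transcript levels of genes in the signals that act on Mup transcription were read from the same fit. Such levels do not measure hormones or the activity of these signals. Of the 11 growth hormone pathway genes, 10 were tested, with a median log2 fold change of -0.22 beside 0.00 over all genes. The receptor Ghr had 633.1 and 566.8 CPM in the controls and 526.1 and 489.9 CPM in mice 3 and 4 (log2 fold change -0.24, edgeR adjusted p = 0.753). Stat5b, the transcription factor downstream of it, had a log2 fold change of -0.02 and Igf1, its main secreted target, one of 0.03. Socs2, a feedback inhibitor and Stat5 target, had 19.0 and 15.6 CPM in the controls, 32.3 CPM in mouse 3 and 14.6 CPM in mouse 4 (0.43). Bcl6, a repressor at Stat5 sites, met the 1.8-fold rule as lower (-1.71) with overlapping groups, since control mouse 2 had 68.7 CPM and control mouse 1 had 9.86 CPM against 8.51 and 15.3 CPM in mice 3 and 4. Only the fit without control mouse 1 kept that call when 1 mouse was left out. The controls also stood far apart in 2 further genes of the list, named after their values were seen. Cish, a Stat5 target, had 46.5 and 3.96 CPM in the controls and 18.9 and 8.65 CPM in mice 3 and 4, and was called higher (1.77) without control mouse 1 and lower (-1.77) without control mouse 2. Onecut1, a liver transcription factor, had 70.3 and 9.03 CPM in the controls and 27.7 and 7.54 CPM in mice 3 and 4, and was called lower (-2.02) without control mouse 2.

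All 12 regulators of Mup genes were tested, with a median log2 fold change of -0.09. Zhx2 had 18.7 and 22.5 CPM in the controls and 17.7 and 14.1 CPM in mice 3 and 4 (log2 fold change -0.38, edgeR adjusted p = 0.675). The liver factor Hnf4a (-0.06) and the glucocorticoid receptor gene Nr3c1 (-0.01) had overlapping groups.

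Other genes whose liver expression differs between the sexes were read from the same fit. At an unadjusted p under 0.05, 9 of 17 male-biased genes were lower and 0 higher, where 3.39% of all genes were lower and 4.04% higher, and the median log2 fold change was -0.44. The rule with the fold called 2 of the 17 lower, where it called 0.915% of all genes lower. One was C6, a complement component (208.9 and 144.9 CPM against 99.6 and 79.1 CPM, log2 fold change -0.99). The other was the glucuronosyltransferase gene Ugt2b38 (13.02 and 13.4 CPM against 7.26 and 4.25 CPM, -1.21). Slco1a1, an organic anion transporter, was at 437.9 and 299.2 CPM in the controls and 239.0 and 225.9 CPM in mice 3 and 4 (-0.66). The cytochrome P450 gene Cyp4a12a (-0.08), the fatty acid elongase gene Elovl3 (0.18) and Cyp7b1 (-0.27) stayed within a log2 difference of 0.3. Unlike the Mup block, the called male-biased genes were lower in mouse 4 than in mouse 3. Of the 17, 5 were called without control mouse 2, and only Ugt2b38 when control mouse 1 or mouse 4 was left out.

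Of 21 female-biased genes, 10 passed the filter on low counts, with a median log2 fold change of 0.84. By the 1.8-fold rule 4 were higher and 1 was lower, where 1.21% of all genes were called higher and 0.915% lower. With at least 10 counts required in every library, 2 were called in all. Cyp2a4 had 0.828 and 0.523 CPM in the controls, 28.1 CPM in mouse 3 and 10.6 CPM in mouse 4 (log2 fold change 4.81, edgeR adjusted p = 0.0636), and it shares sequence with close paralogs. Cyp2b9 had 6.47 and 8.88 CPM in the controls and 16.7 and 27.2 CPM in mice 3 and 4 (1.52, edgeR adjusted p = 0.137). Cyp2b13 had 0.677 and 1.05 CPM in the controls and 3.91 and 5.20 CPM in mice 3 and 4 (2.40). Atp6v0d2 (1.43) was the other one called higher, not called without control mouse 1 or without mouse 4, and Cyp2c40 (-1.38) the one called lower, a call lost on leaving out control mouse 2 or mouse 3. The other 11 genes of the list had too few counts to be tested, so these counts cover only part of it. Without control mouse 2 the median was 1.65 and 8 were called, and without mouse 4 the median was 0.25.

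Among 13 other lipocalins and close relatives, 10 were tested and 2 were called higher by the 1.8-fold rule. That rule called 1.21% of all genes higher and 0.915% lower. The median log2 fold change of the 10 was 0.26 (0.51 without control mouse 1, 0.52 without mouse 3 and -0.03 without mouse 4). Lcn2, an iron-siderophore carrier induced in inflammation, had 3.09 and 2.61 CPM in the controls and 8.44 and 16.3 CPM in mice 3 and 4 (2.13, edgeR adjusted p = 0.103). Apom, a lipoprotein component, had 89.3 and 98.4 CPM in the controls and 153.8 and 193.8 CPM in mice 3 and 4 (0.89), and was not called without control mouse 1 or without mouse 4. The retinol carrier Rbp4 overlapped between groups (0.04). Of 27 secreted plasma protein genes tested, with a median log2 fold change of 0.02, 1 was called lower, the heme-binding hemopexin gene Hpx (2253 and 2195 CPM against 917.2 and 751.6 CPM, -1.41, edgeR adjusted p = 0.0636). Alb and Ttr, both of which encode proteins secreted by hepatocytes as the Mup genes do, had log2 fold changes of 0.04 and 0.07.

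**Figure D5:**
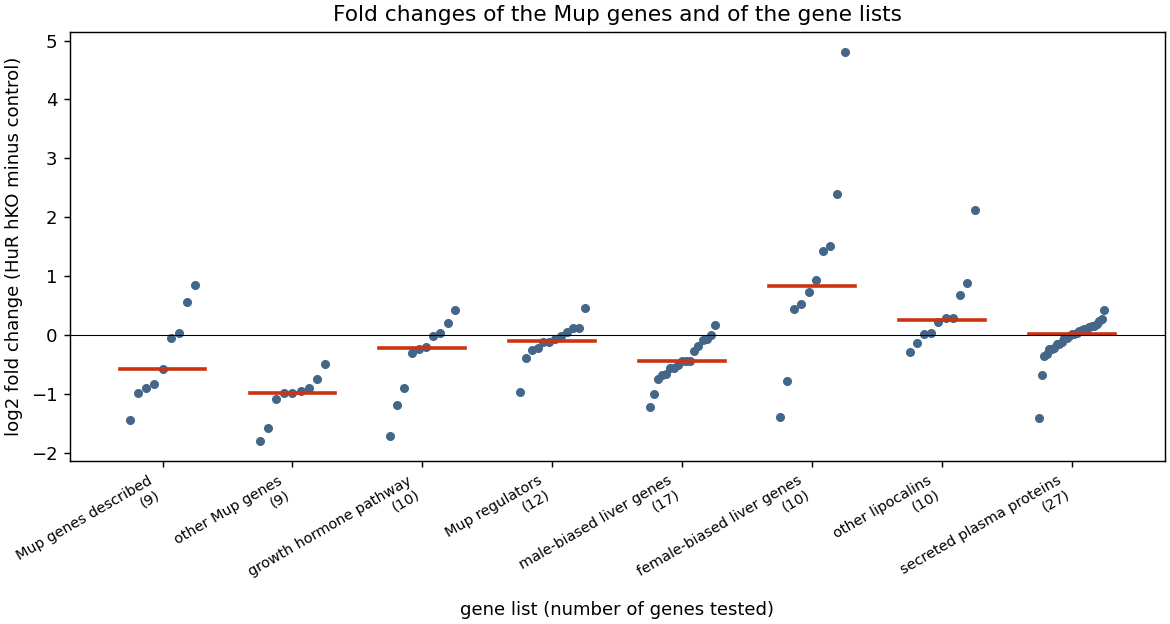
Each point is the log2 fold change of 1 gene, by list, with the number of genes tested in brackets and the median as a red bar. The other Mup genes lie wholly below 0 (-1.80 to -0.48), while plasma protein genes centre on 0.02.

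The genes whose profile over the 4 libraries was nearest to that of the summed Mup genes were Hsd11b1, Ces2a, Cers2, Cd302 and Nat8f2. Likeness was the root mean square difference of centred log2 CPM among 3778 other genes with a mean log2 CPM of at least 5. It was 0.014 for Hsd11b1 and 0.024 for Nat8f2, where the summed profile itself departed from a flat line by 0.105. With 4 libraries that differ little in this sum, 717 genes were nearer to it than a flat line was. Hsd11b1 had 519.4 and 525.8 CPM in the controls, 451.6 CPM in mouse 3 and 523.1 CPM in mouse 4, with mouse 3 lowest as for the sum.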

How the data were processed

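Total liver RNA of 2 control mice and 2 mice labelled HuR hKO was sequenced, and each mouse is 1 library. The authors deposited whole-number read counts per Ensembl gene without normalization, in 1 table. Its 4 columns are headed by bare numbers, which were matched to the same numbers in the sample descriptions (0 columns unmatched). RSEM and GRCm38 are named in the submitters' processing notes. The library protocol, strand use and treatment of reads matching several genes are not given in the sources used here. Whether the counts were rounded from RSEM estimates is not stated either.

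Symbols were matched for 46005 of 46603 identifiers, and positions and transcripts are those of GENCODE M21 (GRCm38). Low counts were filtered with filterByExpr (minimum 10, total 15). The 13001 kept genes were compared with the quasi-likelihood test of edgeR 4.0.16 (R 4.3.3), with TMM factors and Benjamini-Hochberg adjustment, and the test was checked on simulated counts. The standard error (SE) is the absolute log2 fold change divided by the square root of the F statistic. A 0 count allows up to 3 counts, or 0.159 to 0.226 CPM. Counts of every pair of libraries differed beyond sampling noise (chi-square per degree of freedom 21.2 to 32.7). Sequences were aligned with biopython 1.88 and mafft 7.526. Alternatives used DESeq2 1.42.0, limma 3.58.1 and edgeR with other scalings and filters, and left out each mouse in turn, where the lone mouse of a group is assumed to vary like the others. Named genes are the 10 Mup genes, other Mup genes that passed the filter, Elavl1, list genes past either call rule with fixed examples, and the 5 genes nearest in profile. The genes and lists were chosen with earlier results of these data known. A gene among those to be named is not reported here.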

Additional observations from a re-analysis of the deposited data

How the results depend on the processing

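Over 10 other scalings, filters and tests and 4 fits without 1 mouse, 121 of 126 values of single Mup genes on the list kept their direction, and 5, all of Mup2 and Mup3, reversed. Mup3 reversed with no scaling for library size (0.29), a setting that moved the median of all genes to 0.31. Leaving out a mouse gave Mup2 values from -0.31 to 0.32 and Mup3 values from -0.16 to 0.06. The number of listed Mup genes called lower by the 1.8-fold rule (2) became 1 with no scaling, 0 with the DESeq2 Wald test, 4 with limma-voom, 1 with the robust test and 0 to 5 without a mouse, and the number called higher (1) 0 to 2 without a mouse. Adjusted calls among them (0) became 1 with no scaling and 1 with the DESeq2 Wald test (Mup21 in both), 3 with no filter on low counts (Mup11, Mup17 and Mup21) and 0 to 2 without a mouse. The adjusted p of Mup21 ranged from 0.0157 to 0.832, that of Mup17 from 0.00968 to 1.00 and that of Mup11 from 0.0200 to 1.00. The median of the 9 genes ran from -1.07 to -0.22 without a mouse. The log2 ratio of their sum was 0.22 with no scaling, -0.25 with all rows of the family and -0.24 to -0.01 without a mouse. Mup11 and Mup17 exchanged ranks 5 and 6 per kilobase with the longest transcript.

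Of the other Mup genes tested, the number called (5) became 2 with no scaling, 1 with the DESeq2 Wald test, 1 with the robust test and 2 to 9 without a mouse, with medians from -1.87 to -0.45. Over the whole table, calls higher (157) became 510 with no scaling, 262 with no filter and 119 to 274 without a mouse. Calls lower (119) became 61, 264 and 139 to 232. Adjusted calls (3) became 155 with no scaling, 161 with no filter, 85 with the DESeq2 Wald test, 120 with edgeR's exact test, 8 with the robust test and 0 to 73 without a mouse. With no scaling, medians were 0.09 for the growth hormone pathway, 0.22 for the Mup regulators, -0.13 for male-biased and 0.35 for plasma protein genes. The calls of the growth hormone pathway (1) were 2 with no scaling, 2 with no filter, 0 with the DESeq2 Wald test, limma-voom and the robust test and 0 to 2 without a mouse. With no scaling, 0 regulators and 1 male-biased gene were called. With a minimum of 10 counts in every library, 2 female-biased genes were called. With no filter on low counts, the median of the female-biased genes was 0.44. Without a mouse, medians ran from -0.29 to -0.01 (growth hormone pathway), -0.17 to 0.12 (regulators), -0.54 to -0.30 (male-biased), 0.25 to 1.65 (female-biased), -0.03 to 0.52 (other lipocalins, 0.58 with no scaling) and -0.07 to 0.04 (plasma proteins). Calls ran from 0 to 1 for regulators, 1 to 5 for male-biased, 4 to 8 for female-biased and 1 to 2 for plasma protein genes. Apart from what each setting changes by construction, the causes were not tested. Precision is limited by 2 mice a group, the difference between mice 3 and 4, and shared reads. No paired analysis was possible because the groups share no replicate numbers.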
